A study of Mus musculus with 27 samples.

Results

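In mouse hepatocytes taken through hypoxia and reperfusion, 1566 of the 3666 regions where FLAG-tagged ATP citrate lyase (ACLY) was called shared no base with any H3K27ac or H3K9ac peak of the same culture condition. These 1566 regions, 42.7% of the FLAG list (95% Wilson interval 41.1 to 44.3), are described here. They were chosen by that overlap alone, so their lack of both marks under hypoxia-reperfusion is the rule and not a result. The other 2100 FLAG peaks, called acetylated FLAG peaks below, shared at least 1 base with such a peak.

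The study asked what nuclear ACLY does in liver that loses and then regains its blood supply. CUT&RUN, in which an antibody steers a nuclease to cut and release the DNA that its target occupies, was done on primary hepatocytes, cells freshly isolated from mouse liver. Cells of wild-type mice (WT) were kept in normoxia or put through hypoxia-reperfusion (HR), and cells of Alb-cre:Aclyf/f mice (KO) were put through HR. In the KO, Cre recombinase driven by the albumin promoter removes the floxed part of Acly, so the deletion is meant for hepatocytes, and culture began 24 hours after isolation. Both histone marks were mapped in all 3 of these cultures, and ACLY, through an anti-FLAG antibody, in the WT cultures. The sources used here do not say how WT cells came to carry a FLAG tag, or whether IgG signal was subtracted from the lists. The 3 IgG samples themselves were not analysed here.

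ACLY cuts citrate into oxaloacetate and acetyl-CoA, the acetyl donor for fatty acid and sterol synthesis and for the acetylation of histones. Part of the enzyme is found in the nucleus, where it can supply acetyl-CoA close to chromatin. H3K27ac marks active promoters and enhancers, and H3K9ac marks mainly active promoters.

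The data were 1 peak list per antibody and condition, so no difference between conditions could be tested and intervals cover counting error only. The lists held 8252 H3K27ac and 7593 H3K9ac peaks in WT HR, 5655 and 6513 in WT normoxia, and 14418 and 8837 in KO HR. The WT lists lie on a grid of 10 bp and the KO lists do not, so genotype and the way a list was made cannot be told apart. The hepatocyte label was checked on marker genes: 5 of 6 hepatocyte markers had an H3K27ac peak in WT HR, against 1 of 6 Kupffer cell, 2 of 6 endothelial, 0 of 6 stellate cell and 1 of 6 cholangiocyte markers.

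Sequence was read only in promoter windows, so the sequence of the 1238 regions without such a window was not examined. RefSeq promoter windows (GRCm38.p6, the assembly that mm10 names) run from 250 bases before to 50 bases after a transcription start. Among the 1566 regions, 328 (20.9%) shared at least 1 base with such a window, against 43.8% of all FLAG peaks and 60.8% of the acetylated ones. The windows of Top2a (chr11:99024140-99024439, minus strand), Ube2c (chr2:164769679-164769978, plus strand) and Mmab (chr5:114443978-114444277, minus strand) are shown because they are among the windows with the most copies of CCAAT, 6, 6 and 5. Top2a encodes the topoisomerase that untangles chromosomes before mitosis, Ube2c an enzyme that tags mitotic proteins for destruction, and Mmab an enzyme of vitamin B12 metabolism. Capitals mark CCAAT or, on the other strand, ATTGG, and a copy of each overlaps within the Ube2c run CCAATTGG.
Top2a: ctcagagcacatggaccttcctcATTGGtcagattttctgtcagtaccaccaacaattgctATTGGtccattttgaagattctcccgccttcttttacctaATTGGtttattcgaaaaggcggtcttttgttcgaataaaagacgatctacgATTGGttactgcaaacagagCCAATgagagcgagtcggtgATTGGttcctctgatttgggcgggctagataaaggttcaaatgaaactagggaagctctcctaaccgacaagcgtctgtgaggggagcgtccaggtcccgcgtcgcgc
Ube2c: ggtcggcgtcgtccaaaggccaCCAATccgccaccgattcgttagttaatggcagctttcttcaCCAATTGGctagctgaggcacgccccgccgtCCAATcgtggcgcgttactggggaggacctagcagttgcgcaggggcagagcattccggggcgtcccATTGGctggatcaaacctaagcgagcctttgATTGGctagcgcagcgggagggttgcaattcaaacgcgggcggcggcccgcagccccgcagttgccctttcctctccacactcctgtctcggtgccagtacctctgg
Mmab: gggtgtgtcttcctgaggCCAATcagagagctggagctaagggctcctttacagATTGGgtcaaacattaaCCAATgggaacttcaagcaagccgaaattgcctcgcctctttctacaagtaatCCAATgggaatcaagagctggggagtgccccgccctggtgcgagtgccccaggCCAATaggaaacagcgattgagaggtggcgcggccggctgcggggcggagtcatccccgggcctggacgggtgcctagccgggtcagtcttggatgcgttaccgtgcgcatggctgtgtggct

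Other windows among the 1566 regions hold no CCAAT or are near copies of other promoters. Pck1 (chr2:173152823-173153122, plus strand), which encodes the cytosolic enzyme that commits oxaloacetate to glucose synthesis, is shown because its region had the largest total signal of those with a coding gene's promoter, after the predicted gene Gm10354. Mup19 (chr4:61782175-61782474, minus strand), a major urinary protein gene, and Ifnz (chr4:88781881-88782180, plus strand), an interferon zeta gene, are shown because nearly all of their sequence recurs in other promoters. Capitals in the Mup19 window mark the 5 bases that lie in no 31-base word found in another promoter. The Pck1 window has no CCAAT and the Ifnz window no base outside such words, so both are wholly in lower case.
Pck1: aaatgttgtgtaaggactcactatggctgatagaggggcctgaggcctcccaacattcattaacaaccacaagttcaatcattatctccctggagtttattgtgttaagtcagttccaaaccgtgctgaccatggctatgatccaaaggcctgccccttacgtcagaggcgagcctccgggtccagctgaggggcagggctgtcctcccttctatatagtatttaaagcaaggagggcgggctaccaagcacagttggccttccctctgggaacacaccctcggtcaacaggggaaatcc
Mup19: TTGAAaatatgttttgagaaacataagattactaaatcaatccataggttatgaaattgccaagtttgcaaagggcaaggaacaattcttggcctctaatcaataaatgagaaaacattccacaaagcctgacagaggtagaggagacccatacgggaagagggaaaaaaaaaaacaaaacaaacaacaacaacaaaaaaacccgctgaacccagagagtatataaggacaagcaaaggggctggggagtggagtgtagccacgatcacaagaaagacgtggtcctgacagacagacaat
Ifnz: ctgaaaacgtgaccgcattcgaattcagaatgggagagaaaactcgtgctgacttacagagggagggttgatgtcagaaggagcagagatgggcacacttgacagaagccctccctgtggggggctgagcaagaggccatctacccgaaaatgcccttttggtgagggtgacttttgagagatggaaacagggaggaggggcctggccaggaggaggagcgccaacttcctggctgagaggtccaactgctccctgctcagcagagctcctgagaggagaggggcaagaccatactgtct

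CCAAT was common in the promoters of the non-acetylated FLAG regions. This pentamer is the core of the binding site known for the factor NF-Y, and it was searched on both strands without regard to what binds it. Of the 434 promoter windows overlapping the 1566 regions, which belong to 314 coding and 68 lncRNA genes, 277 held it (63.8%, 59.2 to 68.2). It was in 44.6% (42.4 to 46.8) of the 1935 windows overlapping acetylated FLAG peaks and in 37.4% of all 32851 RefSeq windows. Windows with several copies showed the same order: 2 or more were in 35.7%, 21.8% and 11.7% of the windows of these 3 sets, and 3 or more in 18.0%, 8.48% and 3.37%. The windows are GC-rich in both FLAG sets, with a median of 20 CpG in the non-acetylated and 25 in the acetylated set against 7 overall. Among windows with at least 15 CpG the shares with CCAAT were 65.6%, 45.02% and 34.9%. The 434 windows lie in 328 regions, and some overlap, as those of Mvk and Mmab do. Shared bases are then counted more than once, and the intervals do not allow for this. With 1 window per gene the shares were 62.8%, 45.9% and 37.8%, but windows of neighbouring genes can still overlap. The median CCAAT lay 86 bases before the start in the non-acetylated set and 82 in the acetylated set.

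**Figure D1:**
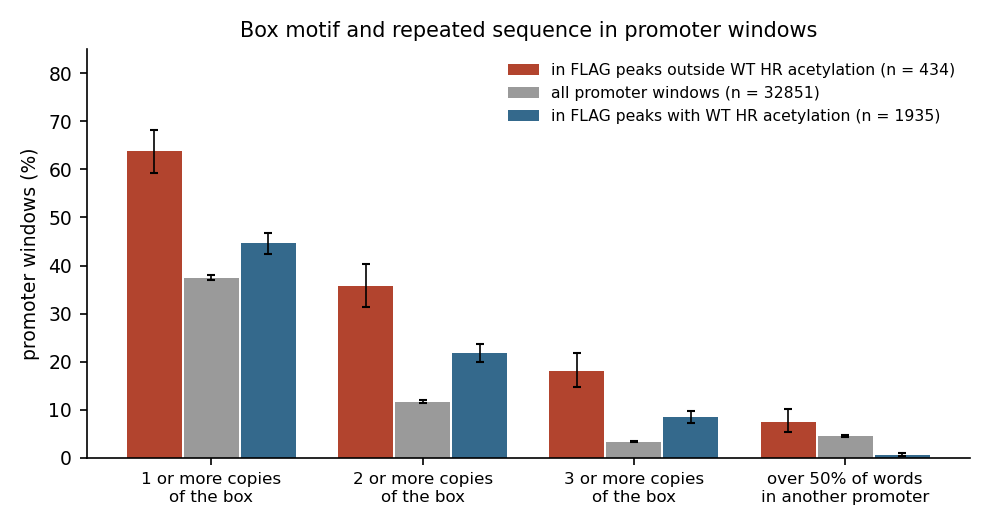
Share of promoter windows (vertical axis, %) with 1, 2 or 3 or more copies of CCAAT on either strand (the box), and with over 50% of their 31-base words in another promoter. Windows overlapping FLAG peaks outside WT HR acetylation are red, all RefSeq windows grey and windows overlapping FLAG peaks with WT HR acetylation blue. Bars are shares with 95% Wilson intervals, and the red bar stands above both others in every group, at 63.8% against 37.4% and 44.6% for 1 or more copies. Several windows of a gene are counted separately. With 1 window per gene, the shares over 50% were 5.50% (red), 4.79% (grey) and 0.618% (blue).

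The other 6 motifs were also searched on both strands, and TATAAA alone had a higher share in the non-acetylated than in the acetylated set. The E-box CACGTG was in 10.8% of windows against 13.2% in acetylated FLAG peaks and 7.15% overall. ACGTG, the core of the hypoxia response element, which also lies inside CACGTG, was in 26.96% against 32.5% and 19.6%. The GC box GGGCGG was in 57.8% against 68.9% and 35.7%, and TTAGGG, the telomere repeat, in 8.76% against 9.46% and 10.6%. TATAAA was in 8.99% (6.64 to 12.05) against 6.05% (5.07 to 7.198) and 13.6%. That difference was not tested. The AP-1 element TGACTCA was in 3 of the 434 windows, 0.691%, against 3.31% and 5.2%.

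Genes of the cell division cycle were among the promoters. The cell cycle genes in this paragraph were chosen after their values were seen, so they are examples and not a count. A region's total signal, from the authors' list, is given here with its rank among the 3666, and its maximum in steps, the smallest unit (0.2713) of which all maxima in the list are whole multiples. The Top2a region had a total of 5941.47 (rank 860) and a maximum of 76 steps, and the Cenpf region, at a gene for a kinetochore protein, had 6600.73 (rank 519) and 92 steps. The Ube2c region had 5434.14 (rank 1216) and 59 steps. These 3 lie in the upper 50% of the list by total, and each lies at least 11 kb from the nearest WT HR acetylation peak. Blm, a helicase gene of DNA repair, had 5838.38 and 83 steps, and Mcm10, a replication factor gene, had 4731.47 and 84 steps. Cdc25a, which encodes a phosphatase that drives entry into S phase, had 5189.97 and 58 steps. Lower in the list were Fbxo5 (4693.49), an inhibitor of the anaphase-promoting complex, Aspm (4199.72), a spindle pole protein, Knl1 (4180.73), a kinetochore scaffold, and the checkpoint kinase gene Chek2 (4253.98). None of these promoter regions overlapped an H3K27ac or H3K9ac peak in WT normoxia or KO HR either. The same held for 213 (64.9%) of all 328 regions with a promoter window, so it is not particular to these genes. A further region inside the Mcm10 gene body was likewise bare, with a total of 5925.19 and 30 steps.

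Several histone genes had one of these regions. Of 69 histone genes 10 (14.5%) lay within 1 kb of one of the 1566 regions, against 3.76% of all 21900 coding genes, and the 10 share 5 regions because histone genes sit side by side. Acetylated FLAG peaks lay at 11 of the 69, against 2129 of the 21900, so histone genes were not particular to the non-acetylated set. The region over the H1f4 and H2bc6 promoters had the largest total of these, 8413.01 (rank 191), with 42 steps. H2az2, a gene of the H2A.Z variant, had 7165.04 (rank 374) and 91 steps, with 4 CCAAT in its promoter window. Both of these regions had H3K27ac and H3K9ac peaks in KO HR and none in WT normoxia. The region at H2ac8 and H2bc8 (4427.62) had H3K27ac alone in KO HR. The regions at H2ac12 and H2bc12 (4530.71) and at H2ac23, H2bc23 and H4c17 (4685.35) had neither mark in any of the 4 lists.

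Acetylation at the 1566 regions was rare in the other conditions too, and more frequent in KO HR than in WT normoxia. An H3K27ac peak of WT normoxia overlapped 39 of them (2.49%, 1.83 to 3.39), against 38.0% of all FLAG peaks, and an H3K9ac peak 28 (1.79%), against 45.9%. In KO HR, H3K27ac overlapped 231 (14.8%, 13.1 to 16.6; 58.4% of all FLAG peaks) and H3K9ac 76 (4.85%; 48.0%). The acetylated FLAG peaks had these marks at 64.4%, 78.9%, 90.9% and 80.2%, in the same order. A mark of either kind was present at 62 regions in normoxia (3.96%, against 51.4% of all FLAG peaks) and at 263 in KO HR (16.8%, against 61.9%). These sets overlap in 34 regions, so 28 had a mark in normoxia alone, 229 in KO HR alone and 1275 in neither. Those 1275 are 81.4% (79.4 to 83.3) of the regions, against 36.0% of all FLAG peaks and 2.14% of the acetylated ones. The KO HR and normoxia shares rest on the weaker acetylation peaks: with only the 50% of each list with the largest totals they were 1.28% and 1.40%. The KO HR lists covered 81.0 Mb (H3K27ac) and 30.3 Mb (H3K9ac), and the normoxia lists 81.5 and 61.1 Mb. What the different making of the KO lists contributes was not tested.

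**Figure D2:**
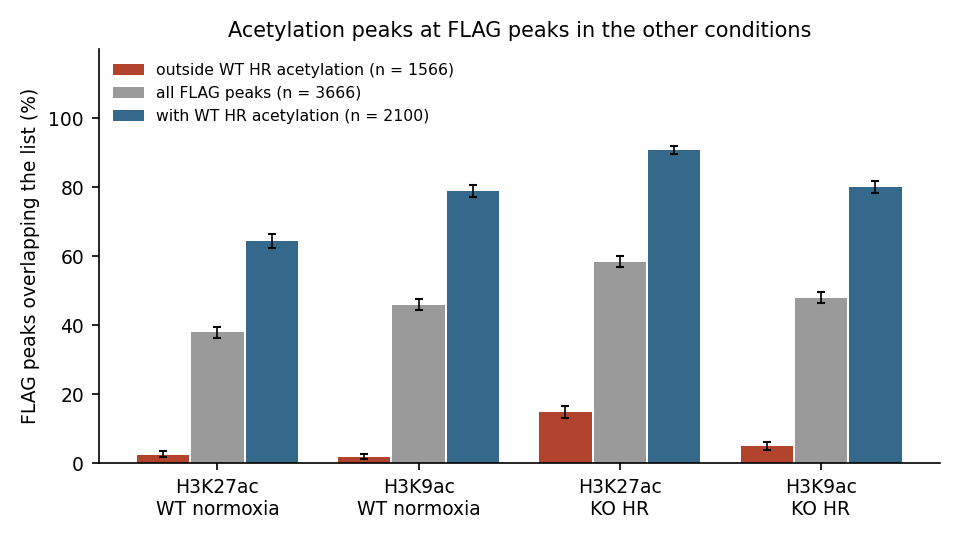
Share of FLAG peaks (vertical axis, %) that overlap an H3K27ac or H3K9ac peak of WT normoxia or KO HR, for FLAG peaks outside WT HR acetylation (red), all FLAG peaks (grey) and FLAG peaks with WT HR acetylation (blue). Bars are shares with 95% Wilson intervals, and the red bars run from 1.79% to 14.8% while the blue bars run from 64.4% to 90.9%.

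The KO HR marks were more frequent at promoters, as they were over all FLAG peaks. Among the 328 regions with a promoter window, 24.7% (20.3 to 29.6) had H3K27ac and 15.9% (12.3 to 20.2) had H3K9ac in KO HR. Among the 1238 without one the shares were 12.1% (10.4 to 14.1) and 1.94% (1.31 to 2.87). Over all FLAG peaks the shares were 77.3% and 74.9% with a promoter window and 43.6% and 27.1% without. In normoxia the 2 marks differed: H3K9ac was at 4.88% of the promoter regions and 0.969% of the others, while H3K27ac was at 0.915% and 2.91%.

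Both marks in KO HR came together at 44 regions (2.81%, against 44.5% of all FLAG peaks). The largest total among them was at the promoter of Tfrc, the transferrin receptor gene, with 10995.8 (rank 54) and a maximum of 149 steps, 46.2 kb from the nearest WT HR acetylation peak. After the H1f4 and H2bc6 region and H2az2, the next at named genes were Fosb, a gene of the AP-1 family, with 6250.75 and 53 steps, Zfp707 with 5659.32, Terf1, a telomere-binding factor gene, with 5580.64 and 73 steps, and the promoter of Cdkl2 with 5577.93. A region at 9430038I01Rik (7504.16) completes the 8 largest. None of these 8 regions had either mark in WT normoxia, nor did 40 of the 44. Over all 1566 regions only 3.96% had one, so its absence here is the usual state.

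Both marks in WT normoxia came together at only 5 regions (0.319%, against 32.5% of all FLAG peaks), and none of the 5 overlapped a promoter window. By total, their nearest coding genes were Tedc2 (8904.07, 0.873 kb away), Tmprss6 (6568.17, 1.47 kb), Gadd45g (6543.76, 304 kb), Id3 (5428.71, 2.79 kb) and Rxra (4875.26, 50.3 kb). Tmprss6 encodes a liver protease that lowers hepcidin and Id3 an inhibitor of helix-loop-helix factors. The regions nearest to Tmprss6, Gadd45g and Rxra also had H3K27ac in KO HR.

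Genes of liver metabolism held some of the largest promoter regions, and their acetylation in KO HR varied. These genes were chosen after their values were seen, except Pck1, which is among the 12 largest totals. Pck1 had a region over its promoter (chr2:173152271-173157080) with a total of 12601.9 (rank 27) and 45 steps, and another in its gene body with 10545.4 (rank 64) and 31 steps. Both lay more than 113 kb from WT HR acetylation and had no mark in any of the 4 lists. Nudt19, a peroxisomal CoA hydrolase gene, had 8933.91, with H3K9ac in normoxia and H3K27ac in KO HR, and Pipox, a peroxisomal oxidase gene, had 8499.83, with H3K27ac in KO HR. Gnmt, which disposes of excess methyl groups, had 5719.0 at its promoter and 6809.63 in its body, both with H3K27ac in KO HR. The fatty acid oxidation gene Ehhadh (4579.55) and the sterol synthesis gene Lss (5149.27) also had H3K27ac in KO HR, and Hsd17b7 (4693.49), of the same pathway, had both marks. By contrast, the region shared by the promoters of Mvk, also of sterol synthesis, and Mmab (5133.0) had none, nor had Pdk4 (5640.33), which shuts off pyruvate oxidation, Nr0b2 (5762.41), a repressor of bile acid synthesis, or Mlycd (4112.91), which breaks down malonyl-CoA. Among plasma protein genes, Fgg (5784.12) had H3K27ac in normoxia and KO HR, Agt (4715.2) both marks in KO HR and Vtn (5019.05) H3K9ac in KO HR.

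Further regions, again chosen after their values were seen, had maxima above the median of 34 steps. At the promoter of Hey2, which encodes a repressor in the Notch pathway, the region had 8529.67 (rank 180) and 139 steps, 222 kb from WT HR acetylation, with none of the 4 lists there. The promoter of Ilf2, an RNA-binding protein gene, had 8453.71 and 168 steps in a region of only 690 bp, and that of the clock gene Per3 had 7590.98 and 61 steps. Neither had a mark in any of the 4 lists. Rara, the retinoic acid receptor gene, had a region in its body with 9066.85 (rank 132) and 157 steps, with H3K27ac in KO HR. The largest maximum of the whole FLAG list, 205 steps, was in a 450 bp region of chromosome Y (chrY:4036601-4037050) with a total of 5388.02.

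Of the 1566 regions 860 (54.9%) lay within 1 kb of a coding gene, against 74.5% of all FLAG peaks and 89.2% of the acetylated ones. Another 675 (43.1%) had neither a coding gene within 1 kb nor an overlapping promoter window, against 23.5% and 8.9%. Pseudogenes were at 66 (4.21%, against 2.4% and 1.05%), lncRNA genes at 203 (13.0%, against 15.1% of all FLAG peaks), tRNA genes at 19 (1.21%, against 1.04%) and miRNA genes at 5 (0.319%, against 0.546%). The regions touched 823 coding genes, and 756 of these had a single region. No acetylated FLAG peak lay at 752 of the 823 (91.4%), a share close to the 90.3% of all coding genes without one.

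The 17 coding genes with 3 or more regions were mostly zinc finger genes and genes with Gm symbols. Zfp978 had 11, Zfp993 had 9, Zfp984 had 8, and Zfp982 and Gm38510 had 7 each. Gm7592 had 5, and Gm21154, Zfp936, Rex2 and 3110082I17Rik had 4 each. With 3 each followed Gm42346, Mup-ps16, Zfp988, Celf2, which encodes a splicing regulator, Gse1, Prkce, which encodes a protein kinase C, and Atxn7l1. Among these 17 genes, regions with a KO HR mark were found at Atxn7l1 alone (2 regions), and regions with a normoxia mark at 3110082I17Rik and Mup-ps16 (1 each).

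The other gene lists are to be read against the 3.76% of all coding genes that had a region. Among 15 hepatocyte genes, 2 (13.3%), Alb and Hnf4a, had one, inside or at the end of the gene: Alb with 8144.43 and 22 steps, Hnf4a with 4511.72 and 18 steps. Both had H3K27ac in KO HR, and Hnf4a also in normoxia. Of 12 genes of acetyl-CoA supply and use Acss3 had one (8.33%). Of 20 histone acetylation genes Hdac1 and Hdac4 had one, and of 20 DNA repair genes Trp53bp1 and Msh6. Acetylated FLAG peaks lay at more genes of each of these lists: 6 hepatocyte, 4 acetyl-CoA, 5 histone acetylation and 3 DNA repair genes. They lay at 2129 of the 21900 coding genes. Shares of lists this short turn on 1 or 2 genes. For the same reason a count of 0 says little for the short lists among the following. None of 20 developmental regulators, 1110 olfactory receptor, 39 Hox, 69 protocadherin, 22 Ugt and 81 ribosomal protein genes had a non-acetylated region. Of the ribosomal protein genes, 16 had an acetylated FLAG peak. Of 20 very long genes, listed together under neuronal adhesion and synapse, 5 had a non-acetylated region (Macrod2, Ptprd, Dpp6, Csmd1 and Gpc6) and 0 had an acetylated FLAG peak. Not all genes of that list are adhesion genes. For Csmd1 and Gpc6 the nearest WT HR acetylation was 1650 and 1748 kb away. Other families with members were zinc finger (31 of 397, 7.81%), Mup (5 of 24, 20.8%), cytochrome P450 (5 of 99: Cyp2w1, Cyp2r1, Cyp3a41a, Cyp3a41b and Cyp3a59), serpin (3 of 63: Serpina1e, Serpina9 and Serpina3k), MHC (2 of 38: H2-Q4 and H2-Q7) and vomeronasal receptor genes (2 of 355: Vmn2r129 and Vmn1r152). Acetylated FLAG peaks lay at 37, 1, 3, 2, 2 and 0 genes of these families, in the same order. Long genes offer more sequence to overlap, and gene length was not taken into account in these counts.

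Some of the regions came in runs. With neighbours at most 10 kb apart and 3 or more to a run, 34 runs held 130 of the 1566 regions (8.30%, 7.03 to 9.77), against 6.0% of all FLAG peaks and 59 (2.81%) of the 2100 acetylated ones, each set counted among its own kind. The share depends on the distance allowed: it was 3.45% at 5 kb and 19.99% at 50 kb. The longest run, chr5:145629011-145696560, held 11 regions over 67.55 kb by Cyp3a41a, a drug-metabolising P450 gene, with maxima of 17 to 30 steps. Then came 6 regions at chr4:147768071-147793450 by Zfp984 and 6 at chr4:147472591-147509200 by Zfp982. Runs of 5 lay on the unlocalized sequences 1_GL456211_random and 1_GL456221_random. No region of these 5 runs had a mark in WT normoxia or KO HR, and no acetylated FLAG peak lay inside them. A further run of 5, chr4:88772921-88806210, covers Ifnz and its copies, where the Ifnz and Gm13288 windows differ at 1 of 300 positions.

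Regions in runs were broad and low. Their median width was 2560 bp against 1755 bp for those outside runs, and their median maximum 24 steps against 37. By total they stood at a median percentile of 64.7 of the FLAG list against 41.1, and by maximum at 19.6 against 44.2. All maxima in runs were between 12 and 75 steps.

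**Figure D3:**
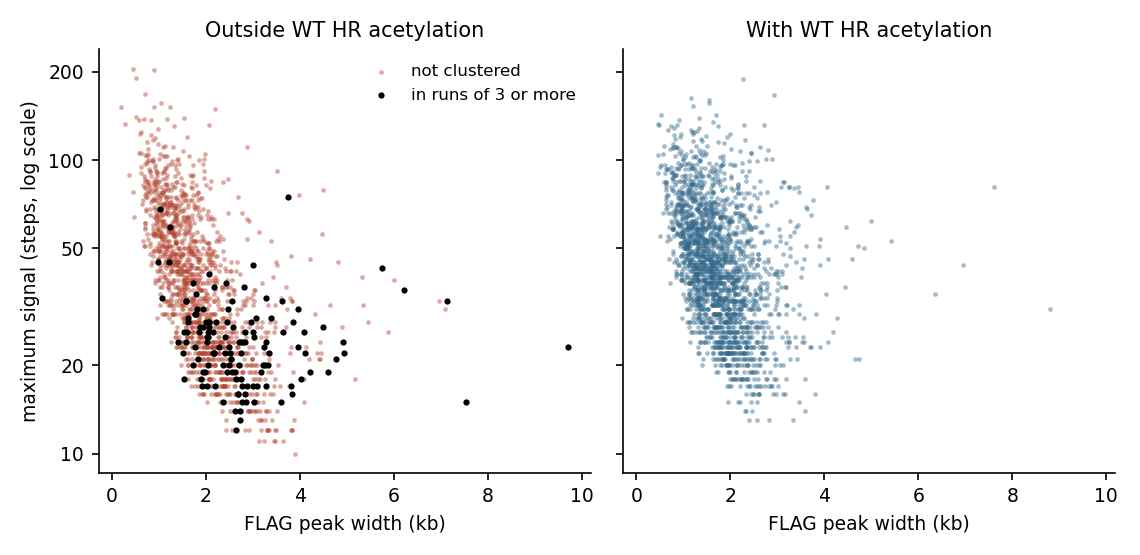
Maximum signal (vertical axis, steps, log scale) against width (horizontal axis, kb) for each FLAG peak outside WT HR acetylation (left, with peaks in runs of 3 or more at most 10 kb apart in black) and with it (right). The black points lie low and to the right, with a median of 24 steps and 2560 bp, while single non-acetylated peaks reach 205 steps.

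Chromosome 4 held the most regions, 174 of its 329 FLAG peaks (52.9%, 47.5 to 58.2). Of these, 77 (44.3%) lay in chr4:145000001-148000000, the distal cluster of KRAB-type zinc finger genes, where only 2 acetylated FLAG peaks were found. The stretch has 27 coding genes, 17 of them with Zfp symbols or Rex2, and 16 had a region. Only 1 of the 77 regions had a mark in KO HR and 0 had one in normoxia. Their median width was 2700 bp and their median maximum 24 steps.

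Chromosomes X and Y had few FLAG peaks, and nearly all were outside acetylation. On X 20 of 21 (95.2%, 77.3 to 99.2) were, and on Y 6 of 6. WT HR acetylation peaks were fewer on X, 113 for H3K27ac and 74 for H3K9ac, than on any autosome. On X most had Btbd35f29, Spin2f, Spin4, Mid1 or Asmt as the nearest coding gene. Mid1 and Asmt lie at the end of X that holds the pseudoautosomal region shared with Y. How many of the X and Y regions fall inside that shared sequence was not counted, so the shares of X and Y may not be separate observations. On Y 5 of the 6 had Gm52481 as the nearest, 25.8 kb or more away. The autosomes ran from 30.4% (22.0 to 40.5) on chromosome 18 to the 52.9% of chromosome 4.

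**Figure D4:**
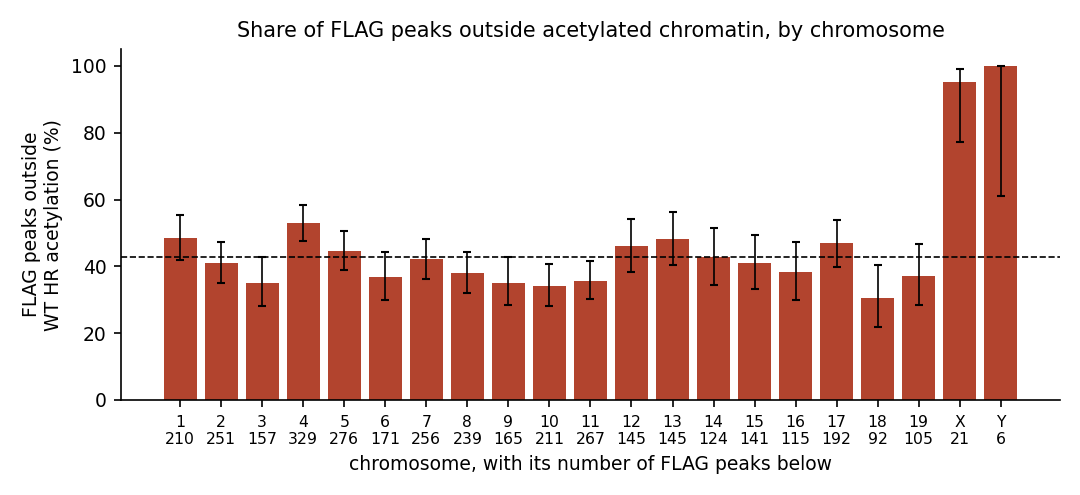
Share of the FLAG peaks of each chromosome (vertical axis, %) that lie outside WT HR acetylation, with the number of FLAG peaks under each chromosome name (horizontal axis). Bars are shares with 95% Wilson intervals and the dashed line is the 42.7% of the whole list, with X (95.2%) and Y (6 of 6) above all autosomes.

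Unplaced and unlocalized sequence, which the assembly could not put in place, held 47 of the 1566 regions (3.001%, 2.26 to 3.97), against 1.31% of all FLAG peaks and 1 of the 2100 acetylated ones. The 47 regions spread over 15 sequences, with 15 regions on 1_GL456211_random, 8 on 1_GL456221_random and 7 on 1_GL456210_random. Of these sequences only 1_GL456212_random and 4_GL456216_random, with 1 region each, held any WT HR acetylation peak. A FLAG peak on the others could not be an acetylated one, so the contrast with the acetylated set follows largely from the rule. The largest totals were 12713.1 (rank 24) on 1_GL456212_random, 12116.3 (rank 35), 9473.8 and 9159.09 on 1_GL456211_random, and 10412.5 (rank 68) on Un_GL456387. Their median maximum was 24 steps, that of the regions in runs. None of the 47 had a mark in WT normoxia or KO HR, but 44 of them lie on 13 sequences where those 4 lists hold no peak at all. Among the placed promoters, some recur elsewhere: 32 of the 434 windows (7.37%, 5.27 to 10.2) had over 50% of their 31-base words in another promoter, against 0.568% in acetylated FLAG peaks and 4.45% of all windows. With 1 window per gene the share was 21 of 382 (5.50%, 3.62 to 8.26), against 0.618% and 4.79%. Counted so, it lay close to the share of all promoters. The sources used here do not say how reads that match several places were handled, and its part in these regions was not tested.

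By total signal the non-acetylated regions stood lower in the FLAG list than the acetylated ones, although they made up 6 of its 10 largest totals. Their median percentile was 42.6 against 55.5, and by maximum 39.3 against 54.6. With the list cut by total into 10 equal classes, their share was 57.4% in the lowest class, 30.2% in the next to highest and 36.0% in the highest. Of the 10 largest totals 6 were non-acetylated, of the 20 largest 11, of the 50 largest 17 and of the 100 largest 41, beside 42.7% of the whole list. Where the sets differed depended on the measure. By maximum, peaks with a promoter window had a median of 45 steps in both sets, while those without had 31 steps in the non-acetylated and 40 in the acetylated set. By total, the median percentile of peaks with a promoter window was 41.7 against 59.2, and of those without 42.9 against 50.6.

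Of the 12 largest totals on placed chromosomes, 6 lay at a coding gene (Zfp978 with 2, Zfp993, Gm42346, Gm10354 and Pck1) and 6 were 3.82 to 53.5 kb from the nearest one. The largest was chr1:85313301-85323010, 3.82 kb from Gm7592, with 21307.9 (rank 3), a width of 9710 bp and 23 steps. Zfp978 had 19669.3 (rank 5) and 16443.5 (rank 9), Zfp993 had 16541.2 (rank 8) and Gm42346 had 15944.3 (rank 10). On chromosome 5 the region 10.9 kb from Gm21190 had 17460.9 (rank 7) and the promoter of Gm10354 had 15377.3 (rank 13). On Y, regions 25.8 and 53.5 kb from Gm52481 had 15393.6 (rank 12) and 14465.7 (rank 18). The region 24.98 kb from Btbd35f29 on X had 14533.5 (rank 17), and that 43.5 kb from Gm40469 on chromosome 8 had 14935.1 (rank 14). The Pck1 promoter region completes the 12. None of the 12 had a mark in WT normoxia or KO HR, beside 81.4% of all 1566 regions without one.

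Most regions lay more than 10 kb from the acetylated peaks of the same condition. Distances of other genome positions were not measured for comparison. For the 1521 on a sequence with any WT HR acetylation peak, the median distance to the nearest was 61.93 kb, with quartiles of 19.63 and 181.37 kb. Only 20 (1.31%) lay within 1 kb, 102 (6.71%) within 5 kb and 218 (14.3%) within 10 kb. The nearest were at Trim7 (20 bp away), Notch1 (40 bp) and Mat1a (40 bp), the latter both with H3K27ac in normoxia. Just across the rule, the shortest overlaps among acetylated FLAG peaks were 10 bp at chr6:37732011-37733860 with Trim24 as the nearest gene, 40 bp at Akap9 and 60 bp at a peak nearest to Fads2.

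**Figure D5:**
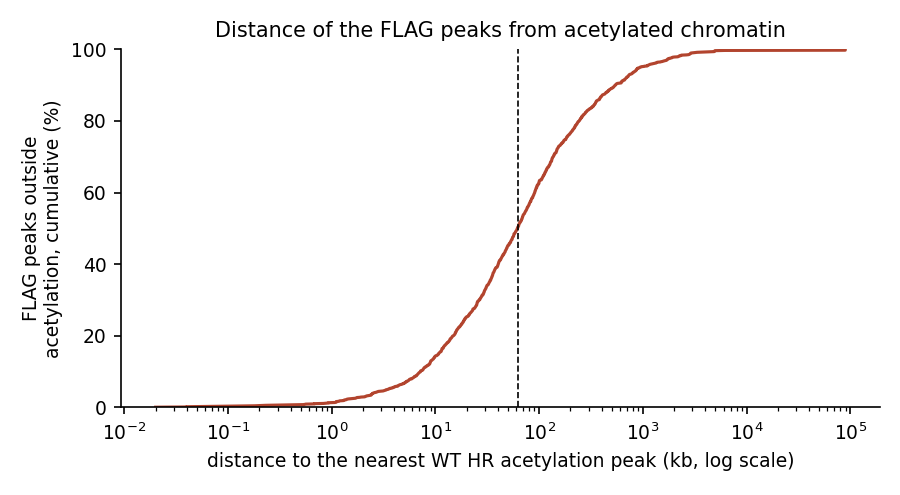
Cumulative share (vertical axis, %) of the FLAG peaks outside WT HR acetylation by distance to the nearest WT HR H3K27ac or H3K9ac peak (horizontal axis, kb, log scale). The dashed line is the median, 61.93 kb, and the curve reaches 14.3% at 10 kb.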

How the data were processed

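CUT&RUN libraries came from 11 samples, of which 8 had peak lists used here, all of primary mouse hepatocytes; groups were taken from the sample titles. Each deposited list gives 2 signal values per peak, read from the authors' column layout as a total and a maximum; their normalization, and so the depth, and the aligner and peak caller are not given in the sources used here. For that reason, signal values were ranked only within the FLAG list. The build was mm10 and Trimmomatic was among the tools, per the submitters' processing notes. The 16 RNA libraries were not used, since their files name transcripts and no table used here pairs these with genes.

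Overlap means at least 1 shared base. Genes (21900 coding) and promoter windows (300 bases) are from RefSeq GRCm38.p6. Shares carry 95% Wilson intervals (SciPy 1.17.1, Python 3.11.15, pandas 2.3.3). The code for overlap, distance and runs, but not for the Wilson intervals, was tested on simulated data. The regions and gene lists were chosen with earlier results of these data known. Named are the 12 largest totals, the 5 largest runs, genes with 3 or more regions, the 8 largest with both marks of a condition (or none), list genes with a region, the 3 nearest on each side of the rule and the 5 largest on unplaced sequence; other named genes were chosen after their values were seen. Alternatives changed the overlap, thresholds, gene window, run distance and ranking.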

Additional observations from a re-analysis of the deposited data

Results flagged for a closer look

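The FLAG list of WT normoxia held 1 peak, which the comparisons above do not use. It lay at chr9:2999971-3038540, was 38570 bp wide and had a total signal of 26165200 and a maximum of 13992.9, against highest values of 26484.3 and 55.6 in the WT HR FLAG list. It overlapped no peak of any other list, and the nearest non-acetylated FLAG region was 12096000 bp away. It is listed because it is signal in data outside the main measurement. The scales of the lists are not known to match.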

How the results depend on the processing

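Of 28 alternatives over 8 results, 17 stayed within the 95% interval of the value reported and 11 did not. The share of FLAG peaks outside acetylation (42.7%) became 39.9% when acetylation within 5 kb also counted, 59.5% with the upper 50% of acetylation peaks by total, 52.1% and 50.03% when H3K27ac or H3K9ac alone decided, and 36.2% for the upper 50% of FLAG peaks. With the upper 50% of acetylation peaks the regions' share with a mark was 1.40% in normoxia and 1.28% in KO HR. The share at a coding gene was 60.4% with 5 kb on each side, the share in runs 19.99% at 50 kb and 3.45% at 5 kb, and the median percentile 39.3 by maximum. The cause was not tested. The 3 alternatives for CCAAT, chosen after seeing the data, gave 62.8% to 65.6%. No paired analysis was possible because each antibody and condition had 1 library, so leaving out a replicate was not possible either. Depth is unknown, so a missing peak means only that none was called.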
